A study of Rattus norvegicus with 6 samples.

Results

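Interferon-stimulated genes were examined in the skeletal muscle of new born rats of low birth weight (LBW) and average birth weight (ABW). They are 10 genes, *Ifit1*, *Ifit2*, *Ifit3*, *Rsad2*, *Mx1*, *Mx2*, *Rtp4*, *Ifi204*, *Irf7* and *Stat2*. They were picked by name, with the difference between LBW and ABW pups in these same arrays already known, so that this difference is given below as a description without a test. Each of the 10 has 1 row among the 26419 transcript rows of the array. The RefSeq accession of the row gave the symbol for 9 of them, and the symbol of *Rtp4* came from the supplementary tables of the paper. *Ifi204* is listed under the current RefSeq symbol *Mnda*. *Ifit1*, *Rtp4* and *Ifi204* are 3 of the genes that the study itself tabled as changed on these samples. Its complete lists of changed genes were not seen here, so whether they hold others of the 10 is not known.

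The arrays carried RNA of combined soleus and gastrocnemius muscle of male Wistar pups that were 1 day old, with 3 LBW pups, 3 ABW pups and 1 array per pup. The labels name no allele and no agent, and the groups were formed at delivery by body weight. LBW pups lay between percentiles 5 and 25 of birth weight. For ABW pups the sample characteristics give percentiles 25 to 75 and the treatment description gives 50 to 75. Litter of origin is not given for the arrayed pups, so that 2 pups of a group may share a dam. The values are log2 array signals as the authors normalized them. They ran from 4.58 to 15.49 over all rows and pups, with array medians of 8.70 to 8.76. Near the top of the arrays, *Acta1*, skeletal muscle actin, had 15.15 to 15.41 and *Tnnc2*, fast troponin C, 15.06 to 15.33 over the 6 pups. The 16 skeletal muscle markers had a median difference of 0.05 between the groups. Bright muscle markers do not show that a sample was free of other tissue, and markers of other cell types, bone among them, are given below.

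Interferons are secreted proteins that bind receptors coupled to Janus kinases. The kinases phosphorylate STAT proteins, among them STAT2, which joins IRF9 in a complex that binds interferon-stimulated response elements in promoters. The genes switched on in this way encode antiviral proteins, nucleic acid sensors and the signalling proteins STAT2 and IRF7 themselves, which is why the set can act as a loop, and a low level of the set is kept in tissue without infection.

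RefSeq gave a promoter window of 300 bases, from 250 before to 50 after the start of the gene, for 6 of the 10 genes (*Ifit3*, *Rsad2*, *Mx1*, *Irf7*, *Stat2* and *Ifi204*). *Ifit1*, *Ifit2*, *Mx2* and *Rtp4* were not matched. The core of the response element, GAAA and GAAA with any 2 bases (NN) between them, searched on both strands, was found in 3 of the 6 windows, beginning 44 bases before the start in *Ifit3*, 69 before it in *Irf7* and 147 before it in *Rsad2*. Among all 33469 windows of the same length, 3.92% held it. In each of the 3 genes it lay as its reverse complement. The longer form, the same letters followed by a C, was found in *Ifit3* and *Irf7* (2 of 6, against 0.881% of all windows). The STAT dimer element TTCNNNGAA reads alike on both strands and was found only in *Ifi204*, 203 bases before its start (1 of 6, against 8.87%). The 160 bases before the start are shown for the 3 genes with the core, and for *Ifi204* and *Stat2*, whose array differences were the lowest and the highest of the set, with the core in capitals.
Ifit3, GRCr8 chr1:241527166-241527325, plus strand: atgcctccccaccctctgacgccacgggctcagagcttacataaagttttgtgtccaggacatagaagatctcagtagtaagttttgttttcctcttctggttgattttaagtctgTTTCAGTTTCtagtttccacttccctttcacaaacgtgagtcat
Rsad2, GRCr8 chr6:48788121-48788280, minus strand: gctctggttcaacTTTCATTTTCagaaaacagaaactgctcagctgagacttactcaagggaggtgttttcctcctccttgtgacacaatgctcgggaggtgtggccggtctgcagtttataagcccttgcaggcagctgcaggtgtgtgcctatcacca
Irf7, GRCr8 chr1:205800024-205800183, minus strand: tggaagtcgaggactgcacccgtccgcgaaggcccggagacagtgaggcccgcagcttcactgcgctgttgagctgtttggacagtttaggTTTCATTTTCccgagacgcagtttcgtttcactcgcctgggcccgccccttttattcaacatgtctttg
Ifi204, GRCr8 chr13:88567893-88568052, minus strand: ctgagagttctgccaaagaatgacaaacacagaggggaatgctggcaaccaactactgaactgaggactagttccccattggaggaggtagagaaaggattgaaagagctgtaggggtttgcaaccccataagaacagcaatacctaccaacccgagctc
Stat2, GRCr8 chr7:1286930-1287089, plus strand: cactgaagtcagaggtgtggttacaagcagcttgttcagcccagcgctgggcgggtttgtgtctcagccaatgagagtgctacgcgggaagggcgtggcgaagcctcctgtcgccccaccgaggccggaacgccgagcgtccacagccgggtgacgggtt
A match is a run of letters and not a mapped site, and a window without the letters says nothing about binding elsewhere.

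Over the 10 genes, 9 had a lower mean in LBW than in ABW muscle, while 55.6% of all rows did. In 6 genes every LBW pup lay below every ABW pup, as in 10.1% of all rows: *Ifit1*, *Rtp4*, *Rsad2*, *Mx2*, *Irf7* and *Ifi204*. The median log2 difference of the 10 genes was -0.70, and that of all rows was -0.02. The description of the set as lower in LBW therefore held for 6 genes pup by pup, held for the mean but not for every pup in *Ifit2*, *Ifit3* and, by only -0.11, *Mx1*, and did not hold for *Stat2*. Because the genes were selected with this contrast in view, nothing is read from these counts against the background. In whole muscle, fewer cells expressing a gene and less RNA of it per cell cannot be told apart.

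**Figure D1:**
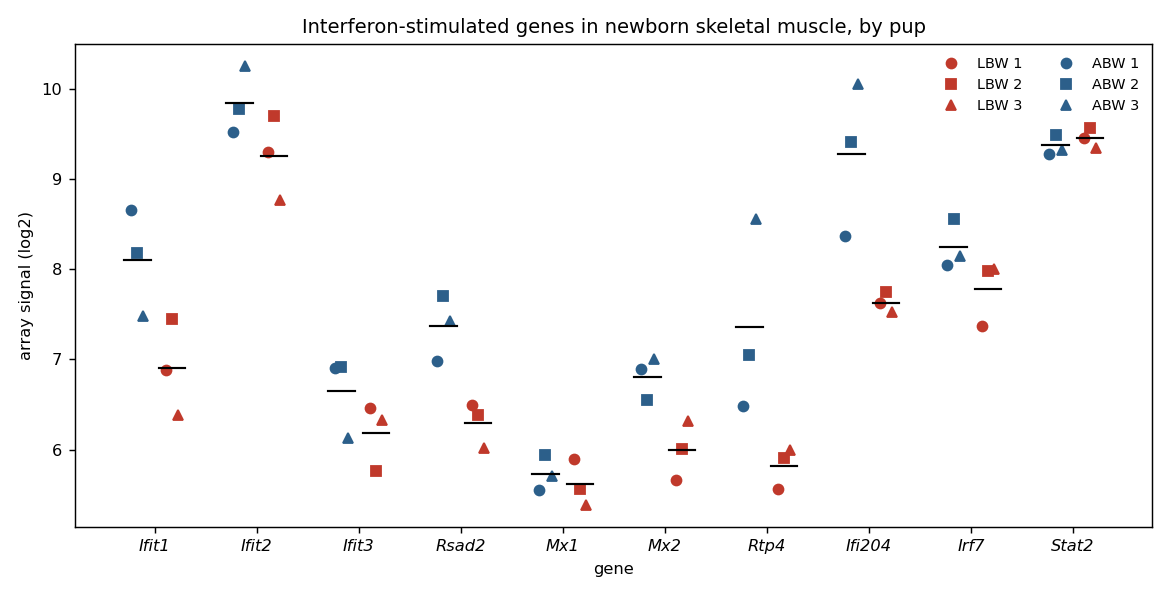
Log2 array signal (vertical axis) of the 10 interferon-stimulated genes (horizontal axis) in 3 ABW pups (blue) and 3 LBW pups (red), with the symbol giving the pup and the black line the group mean. The red symbols lie below all blue ones in 6 genes, whereas those of *Mx1* and *Stat2* lie among them.

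Among the effectors, the *Ifit* genes encode tetratricopeptide proteins that bind viral RNA and restrain its translation. *Ifit1* (NM_020096), whose product recognises RNA without a host-type cap, had log2 signals of 6.88, 7.45 and 6.38 in LBW 1 to 3 and of 8.65, 8.18 and 7.48 in ABW 1 to 3. The groups did not overlap, but only 0.03 separated LBW 2 from ABW 3, and both groups were spread over more than 1 log2 unit. The means were 6.91 ± 0.54 and 8.10 ± 0.59 (SD, n = 3 each), a log2 difference of -1.20 or an LBW level 0.436 times that of ABW.

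*Ifit2* (NM_001024753), a partner of Ifit1 in RNA binding, had the brightest mean signal of the 10, at 9.30, 9.70 and 8.77 in LBW and 9.52, 9.77 and 10.25 in ABW pups. LBW 2 exceeded ABW 1, so that the groups overlapped. The log2 difference of the means, 9.25 ± 0.47 and 9.84 ± 0.37, was -0.59. Leaving out LBW 3 gave -0.35, and leaving out ABW 3 gave -0.39. *Ifit3* (NM_001007694), whose product stabilises Ifit1, had 6.46, 5.76 and 6.33 in LBW and 6.90, 6.92 and 6.13 in ABW pups. Here ABW 3 lay below LBW 1 and LBW 3, and the log2 difference of the means, 6.18 ± 0.37 and 6.65 ± 0.45, was -0.46 (-0.25 without LBW 2, -0.72 without ABW 3). The 3 *Ifit* genes lie together on chromosome 1, with 0 protein-coding genes between *Ifit2* and *Ifit3* and 1 between *Ifit1* and *Ifit3*, yet the order of the pups differed between them. ABW 3 was the lowest ABW pup in *Ifit1* and *Ifit3* and the highest in *Ifit2*.

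*Rsad2* (NM_138881) encodes viperin, an enzyme that makes a chain-terminating nucleotide against viral polymerases. Its log2 signals were 6.50, 6.38 and 6.02 in LBW and 6.98, 7.70 and 7.43 in ABW pups. The groups were separated by 0.48, and the difference of the means, 6.30 ± 0.25 and 7.37 ± 0.36, was -1.07 or 0.475 times the ABW level. It stayed between -1.27 and -0.91 whichever pup was left out, which made *Rsad2* the steadiest of the genes that were lower by more than 1 log2 unit.

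*Mx1* and *Mx2* encode dynamin-like GTPases that trap viral nucleoproteins, and lie on chromosome 11 with 1 protein-coding gene between them. *Mx1* (NM_173096) was the dimmest of the 10, at 5.90, 5.56 and 5.39 in LBW and 5.55, 5.94 and 5.71 in ABW pups. LBW 1 exceeded ABW 1 and ABW 3, and the log2 difference of the means, 5.62 ± 0.26 and 5.73 ± 0.19, was -0.11 (-0.26 to 0.00 over the fits without 1 pup). The deposited values carry no detection call, so how far such a signal lies above background is unknown. *Mx2* (NM_134350) had 5.67, 6.01 and 6.32 in LBW and 6.89, 6.55 and 7.01 in ABW pups. Its groups were separated by 0.23, with means of 6.0 ± 0.33 and 6.81 ± 0.24 and a log2 difference of -0.82. The neighbouring paralogs thus differed in their contrast, but the probe sequences were not used here and cross-hybridization between *Mx* or *Ifit* paralogs was not tested.

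*Rtp4* (XM_001056345), an interferon-induced chaperone of membrane receptors, had 5.56, 5.91 and 6.0 in LBW and 6.48, 7.05 and 8.56 in ABW pups. All LBW pups were below ABW 1 by at least 0.49, and ABW 3 stood far above its group. The log2 difference of the means, 5.82 ± 0.23 and 7.36 ± 1.07, was -1.54, and -0.94 without ABW 3. *Ifi204* (NM_001012029), a member of the HIN-200 family of DNA-binding proteins known from myeloid cells, had 7.63, 7.75 and 7.52 in LBW and 8.37, 9.41 and 10.05 in ABW pups. It had the lowest difference of the set, -1.64 or 0.321 times the ABW level, with means of 7.63 ± 0.12 and 9.27 ± 0.85. In both genes the LBW pups were close together and the ABW pups were wide apart, and ABW 1 was the ABW pup nearest to them.

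Of the transcription factors, *Irf7* (NM_001033691), the regulator that amplifies type I interferon production, had 7.37, 7.98 and 8.0 in LBW and 8.05, 8.55 and 8.15 in ABW pups. The groups were separated by only 0.05, and the log2 difference of the means, 7.78 ± 0.36 and 8.25 ± 0.27, was -0.47 and -0.26 without LBW 1. *Stat2* (NM_001011905), which carries the signal from the receptor to the promoters above, had 9.45, 9.56 and 9.34 in LBW and 9.28, 9.49 and 9.32 in ABW pups. Its means of 9.45 ± 0.11 and 9.37 ± 0.11 differed by 0.09 in the other direction, with overlapping values. *Stat2* was also the steadiest of the 10 between pups of a group, at percentile 27.4 of the residual SD among all rows, whereas *Ifit1*, *Ifi204* and *Rtp4* were at percentiles 96.9, 97.6 and 99.1. The median residual SD was 0.37 for the 10 genes and 0.16 for all rows.

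The evenness of the difference was followed in each pup as the mean, over the 10 genes, of the deviation from the ABW mean. LBW 1 to 3 had -0.81, -0.67 and -0.87, a range of 0.20 over the LBW pups. The ABW pups had -0.21, 0.08 and 0.13, a range of 0.34. No LBW pup thus set the mean alone, and ABW 1 was the ABW pup nearest to the LBW pups. Against ABW 1 alone, a comparison added after these values were seen, all 3 LBW pups were lower in 7 of the 10 genes, as in 24.5% of all rows, and the median difference was -0.67. The 3 genes that were not were *Ifit2*, *Mx1* and *Stat2*.

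The even pup means were made of uneven genes. Within a pup, the SD of the deviation over the 10 genes was 0.68, 0.57 and 0.65 for LBW 1 to 3. In 6 genes the lowest LBW pup was LBW 3. It was LBW 1 in *Rtp4*, *Mx2* and *Irf7*, and LBW 2 in *Ifit3*. ABW 1 was the lowest ABW pup in 7 genes. The number of genes in which a pup lay below all ABW pups was 7 for LBW 1, 7 for LBW 2 and 8 for LBW 3. Of the 10 genes, 5 had a larger SD in ABW than in LBW pups, while 42.2% of all rows did.

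Likeness to the set was measured as the root-mean-square distance, over the 6 pups, between the deviations of a gene and the mean deviations of the 10. The nearest genes outside the set, among the rows with a symbol, were *Pbk*, a mitotic kinase (0.083 log2 units), *Hsd17b7*, an enzyme of cholesterol and oestrogen synthesis (0.084), *Kif15*, a mitotic kinesin (0.092), *Rps6ka1*, a ribosomal S6 kinase (0.095) and *Cbx8*, a Polycomb protein (0.097). *Pbk* had 9.94, 9.89 and 9.81 in LBW and 10.51, 10.74 and 10.93 in ABW pups. The 10 genes themselves were farther from their own mean, from 0.272 (*Rsad2*) to 0.774 (*Rtp4*), and 198 other named rows were nearer to it than *Rsad2*. The nearest rows were the best of 9774 rows with a symbol. The mean was taken over 10 genes whose differences ran from -1.64 to 0.09. Among so many rows some can lie near such a mean, while the genes averaged in it lie farther off. The distances therefore cannot tell whether the 10 genes vary together, and nothing is read from them.

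The relation of the difference to the basal level was read from the order of the ABW means. The order was *Ifit2* (9.84), *Stat2* (9.37), *Ifi204* (9.27), *Irf7* (8.25), *Ifit1* (8.10), *Rsad2* (7.37), *Rtp4* (7.36), *Mx2* (6.81), *Ifit3* (6.65) and *Mx1* (5.73). Signals of different transcripts come from different probes, so this is an order of brightness and not of transcript number. ABW values overlapped in 7 of the 9 pairs of neighbours in this order, the exceptions being *Ifit2* above *Stat2* and *Ifit3* above *Mx1*. The median difference was -0.82 in the 5 dimmer genes and -0.59 in the 5 brighter ones, a gap of -0.23. The gap was -0.36 without LBW 3, and -0.04, -0.01 and -0.03 without LBW 1, LBW 2 and ABW 1, and -0.42 when medians of the 3 pups replaced means. The genes with the lowest values, *Ifi204*, *Rtp4*, *Ifit1* and *Rsad2*, had ABW means between 7.36 and 9.27. The genes nearest to 0 were *Mx1*, the dimmest, and *Stat2*, next below *Ifit2* in the order. The ABW mean enters both quantities, so no test was made.

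At a given brightness the spread of differences differs, and the genes are therefore set beside rows of similar ABW mean. Between 8 and 10, the 5th and 95th percentiles of 5102 rows were -0.63 and 0.70, and *Ifi204* and *Ifit1* lay below this span while *Ifit2*, *Irf7* and *Stat2* lay inside it. Between 7 and 8 (2333 rows) the 5th percentile was -0.62, and *Rtp4* and *Rsad2* lay below it. Between 6 and 7 (3611 rows) it was -0.43, and *Mx2* and *Ifit3* lay below it. *Ifit3* did so by little, and its difference was inside the span without LBW 2 (-0.25), ABW 1 (-0.34) or ABW 2 (-0.33). Under 6 (5647 rows) it was -0.20, and *Mx1* lay above it. Since the genes were selected with this contrast in view, their places against these spans are a description, and nothing is read from them.

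**Figure D2:**
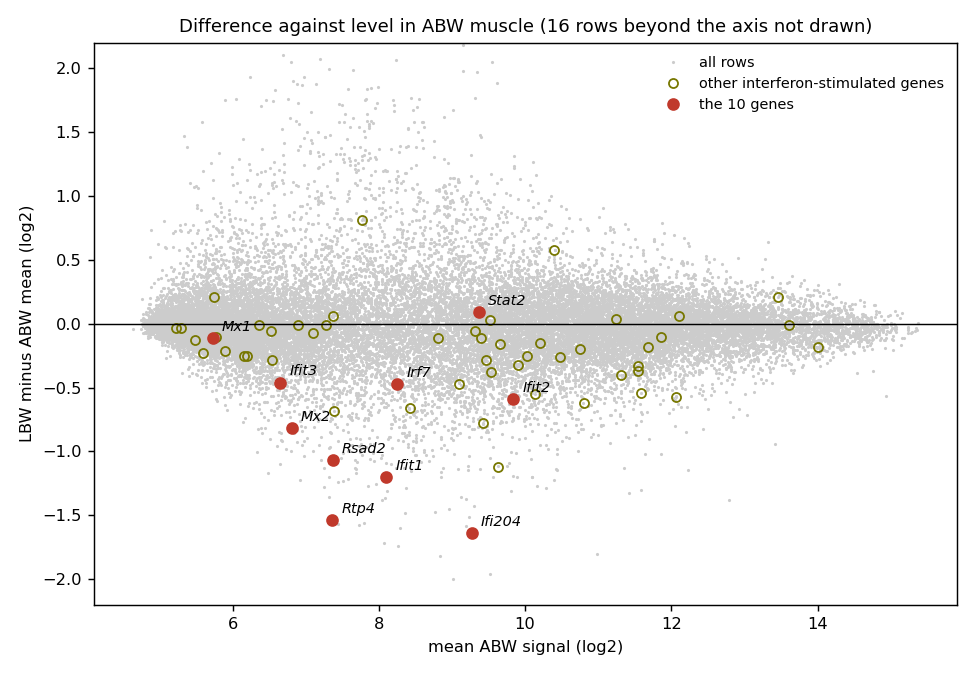
LBW minus ABW mean (log2, vertical axis) against the ABW mean signal (log2, horizontal axis) for all rows (grey), the 10 interferon-stimulated genes (red, named) and 49 other interferon-stimulated genes (open circles); 16 rows lie beyond the axis. The named genes with the lowest differences lie between the dimmest, *Mx1*, and the brightest, *Ifit2*.

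Beyond the 10 genes, the rest of the pathway was read from the fit over all rows by limma, in which 1131 rows (4.28%) passed an unadjusted p under 0.05 with a fold change of at least 1.5. Of these, 502 rows (1.9% of all) were lower and 629 rows (2.38%) were higher in LBW. After Benjamini-Hochberg adjustment 0 rows passed by limma, with a smallest adjusted p of 0.216, and 0 passed by the methods' test. At an unadjusted p under 0.05 alone, limma gave 3270 rows (12.4%), 6.74% of all rows lower and 5.64% higher. The calls below are therefore unadjusted ones.

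Of 92 further interferon-stimulated genes that were listed, 49 had a row. Their mean was lower in LBW in 41 of the 49 (83.7%, against 55.6% of all rows), but by little, with a median log2 difference of -0.18. At an unadjusted p under 0.05 by limma, 11 were lower (22.4%, against 6.74%) and 2 higher. LBW lay below ABW without overlap in 13 genes (26.5%, against 10.1%) and above it in 2, *Slfn13* (current RefSeq symbol *Slfn9*) and *Shisa5* (against 7.28%). In each pup the mean deviation of the 49 was -0.17, -0.27 and -0.14 for LBW 1 to 3 and -0.05, 0.01 and 0.04 for ABW 1 to 3. Here LBW 2 was the lowest pup, whereas it was the highest LBW pup for the 10 genes.

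The threshold was passed by 4 of the 49 in the lower direction (8.16%, against 1.9%) and by 0 in the higher. All come from the arrays of the study itself, so none of the 4 is independent evidence. *Tmem140* (NM_001009709), a transmembrane protein gene that the study also tabled, had 8.44, 8.36 and 8.72 in LBW and 9.31, 9.91 and 9.65 in ABW pups. The complete lists of the study were not seen here, so whether they hold the other calls is not known. The log2 difference of *Tmem140* was -1.12 ± 0.18 (SE), with an adjusted p of 0.216 by limma. *Trim21* (NM_001082572), a cytosolic antibody receptor and ubiquitin ligase, had 8.58, 8.86 and 8.49 against 9.16, 9.68 and 9.43, with a difference of -0.78 ± 0.16 and an adjusted p of 0.249 by limma. Both genes kept the call in each of the 6 fits that left out 1 pup and by the methods' test.

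*Nmi* (NM_001034148), a STAT interactor, had 10.21, 10.38 and 9.93 in LBW and 10.38, 10.90 and 11.10 in ABW pups, so that the groups met at 10.38, with a difference of -0.62 ± 0.21 (adjusted p = 0.337 by limma). *Oasl2* (NM_001009682), an oligoadenylate synthetase-like gene named after its values were seen, had 6.64, 6.36 and 7.14 against 7.58, 6.93 and 7.67, with overlapping groups and a difference of -0.68 ± 0.27 (adjusted p = 0.379 by limma). *Nmi* and *Oasl2* each kept the call in only 2 of the 6 fits without 1 pup. Their calls thus depended on single pups.

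The 2 brightest of the 49 by ABW mean had overlapping groups. *Ifitm2*, a membrane protein that blocks viral entry, had 13.86, 13.72 and 13.91 in LBW and 13.90, 14.02 and 14.10 in ABW pups (difference -0.18 ± 0.10, SE). *Ifi27*, a mitochondrial interferon-induced protein, had 13.67, 13.56 and 13.56 against 13.70, 13.50 and 13.63 (-0.01 ± 0.09). *Shisa5*, about as bright and named after its values were seen, was higher in LBW without overlap, at 13.64, 13.69 and 13.68 against 13.46, 13.50 and 13.42 (0.21 ± 0.08). *Slfn3* (current RefSeq symbol *Slfn4*), a Schlafen family gene, had the highest difference, 0.81 ± 0.65, which rested on 10.07 in LBW 3 against 8.38 and 7.29 in LBW 1 and LBW 2, and 8.01, 7.56 and 7.75 in ABW pups.

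**Figure D3:**
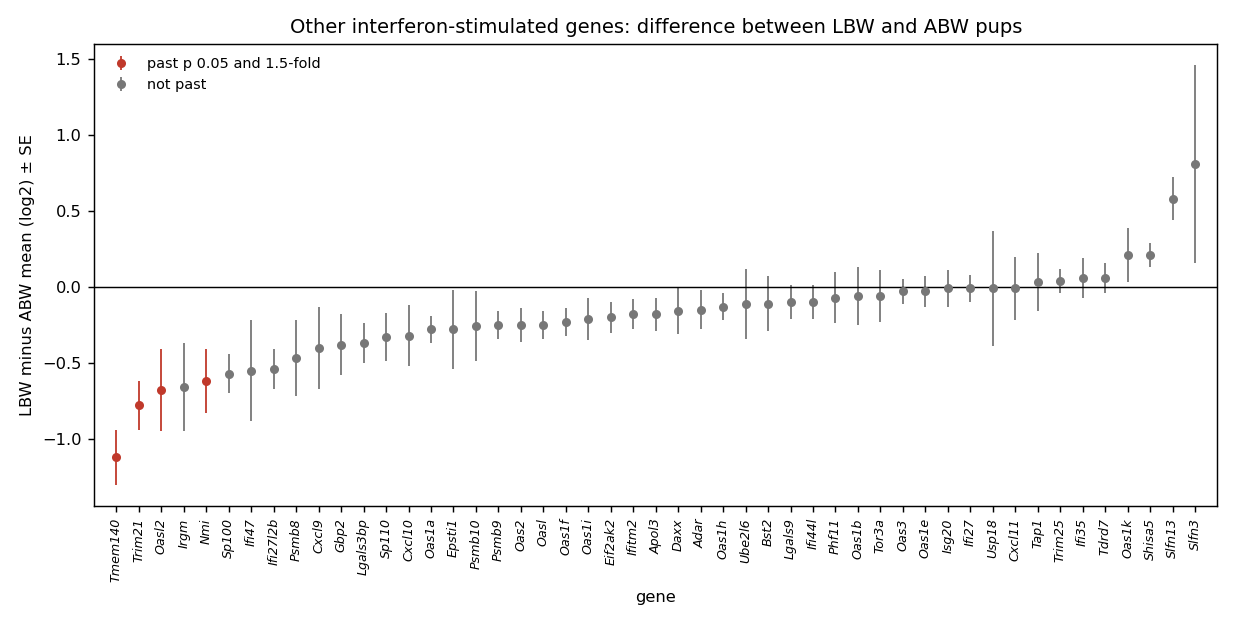
LBW minus ABW mean (log2, vertical axis) of 49 other interferon-stimulated genes (horizontal axis), with bars for the standard error from limma (n = 3 pups per group); red marks the 4 genes past an unadjusted p of 0.05 and a fold change of 1.5. Most points lie below 0, and the red ones are *Tmem140*, *Trim21*, *Oasl2* and *Nmi*.

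The response element core was found in 26 of the 44 other genes that had a promoter window (59.1%, against 3.92% of all windows). The longer form was found in 15 (34.1%) and TTCNNNGAA in 11 (25.0%). The 26 genes with the core had a median difference of -0.24, with 24 of 26 lower and all 4 calls among them. The 18 genes without it had a median of -0.09, with 13 of 18 lower and 0 called, and both groups reached into positive values (highest differences 0.21 and 0.81). The difference between these groups was not tested.

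Upstream of these genes, the ligands gave no call. *Ifna1* (current RefSeq symbol *Ifna5*), *Ifnb1* and *Ifng*, the only 3 of 12 listed interferon genes with a row, had ABW means of 5.53 to 5.77, at the dim end of the arrays. Their log2 differences were 0.24 ± 0.14, -0.13 ± 0.09 and -0.16 ± 0.10 (SE), all with overlapping pups. At the receptor, 2 of 9 listed genes had a row. *Ifngr1*, a chain of the interferon gamma receptor, differed by -0.15 ± 0.12 and *Jak2*, the kinase bound to that receptor, by 0.16 ± 0.11, again with overlap. The receptor chains for type I interferon were not analysed here.

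The STAT and IRF genes other than *Stat2* and *Irf7* had 13 rows, of which 3 passed in the lower direction (23.1%, against 1.9%) and 0 in the higher. *Irf2* (NM_001047086), which competes with activating factors at the response element, had 10.43, 10.18 and 10.11 in LBW and 11.17, 10.90 and 11.04 in ABW pups. Its difference was -0.80 ± 0.12 (adjusted p = 0.216 by limma) and the call held in each of the 6 fits without 1 pup. *Stat4* (NM_001012226), a mediator of interleukin 12 signals, had 6.02, 6.14 and 5.86 against 6.66, 6.51 and 6.70, a difference of -0.62 ± 0.11 (adjusted p = 0.216 by limma), with the call lost without LBW 3 or without ABW 3.

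*Irf4* (XM_001061610), a lymphocyte and adipocyte factor that the study also tabled, had 7.60, 6.60 and 5.86 in LBW and 7.24, 8.58 and 9.05 in ABW pups. The groups overlapped, the difference was -1.60 ± 0.59 (adjusted p = 0.358 by limma), and the call was lost in 4 of the 6 fits without 1 pup and in the blocked fit by replicate number. *Stat6*, the factor of interleukin 4 signals, differed by -0.53 ± 0.13 without overlap and *Irf3*, a factor activated by the sensors, by 0.17 ± 0.10. *Irf9*, which binds DNA together with STAT2 and was named for that role after its values were seen, was not called. It had a difference of -0.07 ± 0.10 (SE), with 11.17, 11.20 and 11.46 in LBW and 11.34, 11.33 and 11.37 in ABW pups.

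Of the 5 sensor and adaptor genes with a row, *Tlr3* (NM_198791), the endosomal receptor for double-stranded RNA, was the only call (1 of 5 lower, against 1.9% of all rows). It had 9.73, 9.54 and 9.18 in LBW and 10.27, 10.00 and 10.56 in ABW pups, a difference of -0.79 ± 0.19 (adjusted p = 0.272 by limma) that held in each of the 6 fits without 1 pup. The adaptors *Mavs* and *Myd88* differed by -0.17 ± 0.22 and -0.19 ± 0.18. Of 12 inhibitors of the pathway 0 were called, where 1.9% of all rows were called lower and 2.38% higher. By limma, 1 of the 12 was higher at an unadjusted p under 0.05, against 5.64% of all rows. That gene was *Socs2*, a feedback inhibitor of cytokine receptors, at 12.15, 12.11 and 11.91 in LBW and 11.77, 11.63 and 11.52 in ABW pups (0.41 ± 0.11, SE). *Socs3*, another, differed by 0.63 ± 0.26 and the phosphatase *Ptpn6* by -0.42 ± 0.28, both with overlap.

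Marker lists of other cell types also differed between pups. Macrophage markers, 12 of 18 listed with a row, had mean deviations of -0.27, -0.30 and -0.20 in LBW 1 to 3 and of -0.32, 0.11 and 0.21 in ABW 1 to 3, with 9 of 12 lower. Their summed signal was 15.16 to 15.31 on the log2 scale in LBW and 15.07 to 15.51 in ABW pups. ABW 1, the ABW pup with the lowest interferon-stimulated genes, was thus also the lowest pup for macrophage markers. Their median difference was -0.21. The brightest markers *Aif1* (-0.19 ± 0.12, SE) and *C1qc* (-0.22 ± 0.13) overlapped between groups, as did *Adgre1* (-0.51 ± 0.39). Only 3 of the 12, *Cd68*, *Cd14* and *Lyz2*, had higher means in LBW (0.07 ± 0.15, 0.14 ± 0.16 and 0.16 ± 0.33). The only call was *Clec4a3*, a myeloid lectin (1 of 12, 8.33%, against 1.9% of all rows; -1.58 ± 0.39, adjusted p = 0.270 by limma).

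Adipocyte markers (14 rows, 13 lower) had -0.43, -0.41 and -1.29 in LBW 1 to 3 and -0.56, 0.41 and 0.15 in ABW 1 to 3, with summed signals of 15.93 to 16.27 and 16.19 to 16.67. Of the 14, 4 were called lower (28.6%, against 1.9%), and their median difference was -0.67. Neutrophil precursor markers (8 rows, 7 higher, 6 called higher against 2.38% of all rows) had 2.08, 0.88 and 1.63 in LBW pups, with summed signals of 13 to 13.97 against 12.40 to 12.55 in ABW pups. Bone markers (13 rows, 12 higher, 7 called higher against 2.38% of all rows) had 2.61, 0.39 and 3.53 in LBW pups. Their summed signals were 15.15 to 16.56 against 15.14 to 15.34 in ABW pups. LBW lay above ABW without overlap in 6 of the 13 rows, against 7.28% of all rows. Among these 6, *Ibsp* had 13.63, 9.86 and 14.19 in LBW and 7.64, 7.36 and 8.47 in ABW pups. LBW 2 had the lowest bone markers of the LBW pups. It was the LBW pup nearest to ABW for the 10 genes (-0.67) and the farthest for the 49 others (-0.27). Lymphocyte markers (12 rows) had 7 lower and a median difference of -0.04, with summed signals of 11.32 to 11.75 against 11.80 to 11.91. The 1 call was *Cd4* (8.33%, against 1.9%), at -0.61 ± 0.18 (SE, adjusted p = 0.302 by limma). *Cd4* was also the brightest of the 12 (ABW mean 10.94) and so weighed most in the summed signals. These sums are therefore no measure of lymphocytes as a whole. The dendritic cell (5 rows), erythroid precursor (6 rows) and endothelium (7 rows) lists had median differences of 0.04, -0.05 and -0.12, with 0 calls in each. Of the endothelium markers, 2 were lower in LBW without overlap (28.6%, against 10.1% of all rows). The part of these cell types in the values of the 10 genes was not tested.

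**Figure D4:**
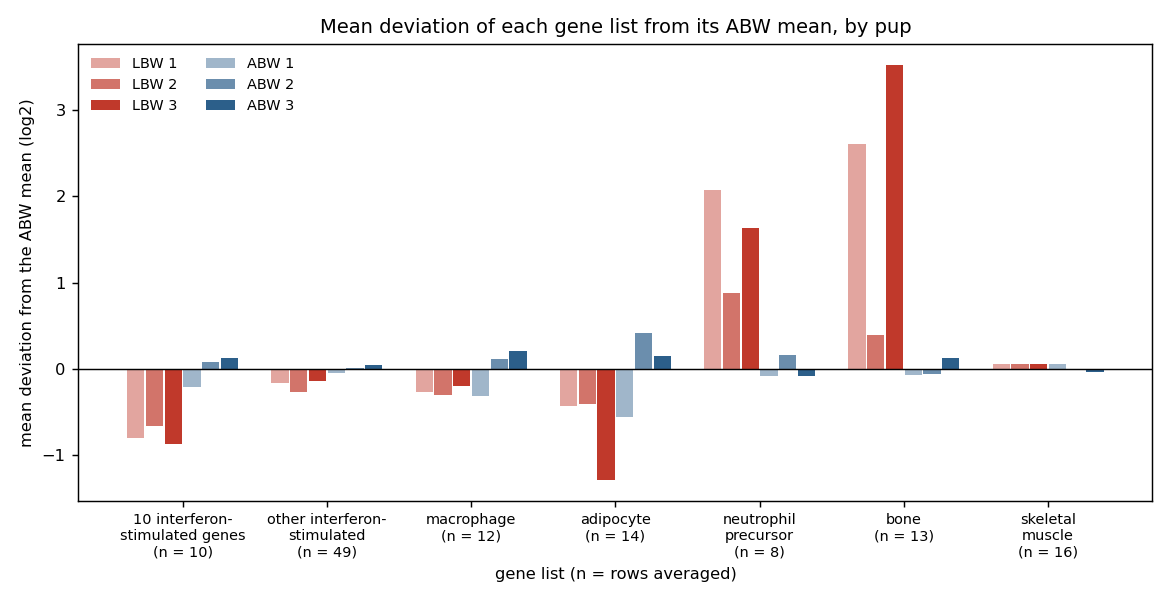
Mean deviation from the ABW mean (log2, vertical axis) of the 10 interferon-stimulated genes and of 6 other gene lists (horizontal axis, n = rows averaged) in each of 3 LBW pups (red shades) and 3 ABW pups (blue shades). The bars of the 10 genes are of like length in the 3 LBW pups (-0.81, -0.67 and -0.87), whereas those of bone markers differ (2.61, 0.39 and 3.53).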

How the data were processed

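RNA from the muscle of 6 pups, 3 per group, was labelled with Cy3 and hybridized to NimbleGen arrays, 1 per pup. The authors deposited 1 normalized log2 value per transcript and pup, each from 5 probes. The submitters' processing notes name RMA. Background and detection calls were not used here.

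Rows were named through RefSeq accessions (assembly GRCr8; 9740 rows) and, for 34 further rows, the paper's supplementary tables; 9774 of 26419 rows (37.0%) have a symbol. No member had a second row to average. Pathway genes were also matched by older RefSeq symbols, cell type markers by current symbols only. The deposited values entered without a further filter. Differences were taken between group means and tested over all rows by lmFit and eBayes of limma (version 3.58.1, under R 4.3.3), 2-sided, with Benjamini-Hochberg adjustment. The fit and its unadjusted calls, but not the adjustment, were also tried on simulated data. The call rule, p under 0.05 and 1.5-fold, is that of the methods. The p-values weigh the difference of the group means against the spread between pups of a group, which eBayes draws toward that of all rows. Their precision is limited by how few arrays there are. They take the pups as independent, which could not be checked because litter is not given.

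The 10 genes and all gene lists were chosen with earlier results of these data known. Named by rule were the 10 genes and the 5 nearest patterns. In each pathway list the rule took the 3 largest differences, the 2 brightest genes and each call without overlap. In each marker list it took at most 4 genes. Named outside the rule were *Oasl2*, *Shisa5*, *Slfn13*, *Irf9* and the macrophage markers *Cd68*, *Cd14* and *Lyz2*. Some genes that the rule took, such as *Pias2* and *Ptpn11*, are not named above. Replicate numbers did not pair the pups. Alternatives were other normalizations, filters, variance models, array weights, the methods' test, a replicate block, a 2-fold criterion and leaving out each pup. Some genes of the lists are counted but not reported singly here.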

Additional observations from a re-analysis of the deposited data

How the results depend on the processing

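The median difference of the 10 genes, -0.70, stayed between -0.82 and -0.63 over the fits without 1 pup, was -0.70 after quantile normalization, -0.72 with arrays centred on their medians and -0.73 from medians of 3 pups, and the range over LBW pups, 0.20, became 0.21 and 0.26 under these 2 normalizations. The gap between dimmer and brighter genes, -0.23, was -0.42 from medians of 3 pups. The median of the 49 other genes, -0.18, stayed between -0.20 and -0.15.

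Counts moved more. All calls, 1131, became 586 by the methods' test, the Student test defined above, and 336 at a fold change of at least 2. They were 806 to 1555 over the fits without 1 pup. Lower calls, 502, became 279 and 83, with 346 to 740. Rows with an adjusted p under 0.05 by limma were 0 to 126, the 126 without LBW 2 and 0 in each other fit without 1 pup. Lower calls among the 49 genes, 4, became 2 by the methods' test and 1 at 2-fold, with 2 to 6, the 2 without ABW 3. Higher calls there, 0, became 1 after quantile normalization and were 0 to 1 without 1 pup. STAT and IRF calls, 3, were 1 to 3, the 1 without ABW 3. Calls among the inhibitors, 0, were 0 to 2, the 2 without ABW 1 and 1 without LBW 1. The cause was not tested.

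The replicate number was also fitted as a block. Same-numbered pups deviated together with correlations of 0.087, 0.103 and 0.055, so the numbers were not taken as pairs. The replicate block gave 1236 calls, 522 of them lower, 0 after adjustment, 4 among the 49 genes, 2 among the STAT and IRF genes, 1 among the sensors and 0 among the ligands, the receptors and the inhibitors.

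With 3 pups per group and no detection call, a difference in the dimmest genes such as *Mx1* and the interferon genes was not resolvable here. The comparison with ABW 1 alone was chosen after seeing the data.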
